A study of Mus musculus with 14 samples.

Results

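The cadherin, protocadherin and NCAM adhesion genes are the 42 genes, of 24454 in the table, whose mouse symbol is Cdh or Pcdh with a number, Fat1 to Fat4, Dchs1, Ncam1 or Ncam2, with the clustered protocadherins left out. They comprise 23 cadherins, 12 non-clustered protocadherins, 5 genes of the Fat and Dachsous group and 2 NCAM genes. Dchs2 also meets the rule and was not analysed here. The genes were followed in 14 RNA-seq libraries of cells sorted from mouse Sox9 IRES-EGFP forelimb buds, in which EGFP reports Sox9 expression (S9+ or S9-). Dead cells and cells with ectodermal, endothelial or blood surface markers had been gated out. At E10.5 the sorted populations were S9-JAG1+ limb bud mesenchymal progenitors (LMPs, JAG1+ and SCA-1-, 3 libraries), S9-Pαhi LMPs (PDGFRα high, JAG1- and SCA-1-, 3 libraries), S9+Pαhi osteo-chondrogenic progenitors (OCPs, 3 libraries) and S9-SCA-1+ cells (JAG1-, 2 libraries, numbered 2 and 3). S9+PαhiCol2a1+ chondroblasts (3 libraries) were sorted at E11.5, and the gate in their labels is that of the OCPs, so that population and stage change together in every comparison with chondroblasts. Each library held the pooled cells of many limb buds, so that p-values measure the spread between such pools. In such bulk samples, fewer cells of a type and less RNA per cell cannot be told apart.

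Classical cadherins join neighbouring cells by calcium-dependent binding of like to like, and their tails hold β-catenin, α-catenin and p120-catenin, which link them to actin. Protocadherins share the extracellular repeats but not the catenin-binding tail, and the giant cadherins Fat4 and Dchs1 bind each other across the cell border to orient cells. NCAM is an immunoglobulin-type adhesion molecule whose grip is loosened by polysialic acid. In the limb bud, N-cadherin and NCAM are known from the mesenchymal condensations that come before cartilage, and cadherin-11 from the loose mesenchyme.

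The libraries held 20316583 to 29162751 counts, and levels are given as CPM, a gene's count relative to its library's scaled total. A level of 3 counts, taken as the limit of detection, came to 0.101 to 0.149 CPM. Of the sorting genes, Jag1 stood at 228 to 364 CPM in S9-JAG1+ LMPs and 10.53 to 21.3 CPM in the other E10.5 populations. Sox9 stood at 411 to 625 CPM in S9+ and 7.41 to 65.5 CPM in S9- libraries. In chondroblasts against OCPs, Jag1 was called higher (6.60% of all genes) and was the only gene called of 6 listed for identity. Col2a1, which names the chondroblasts, was among those not called there. A call also needs the fold limit given below, so this does not show equal levels. The study reports higher Col2a1 in chondroblasts than in OCPs. Ly6a, which encodes SCA-1, reached only 3.10 to 3.36 CPM in S9-SCA-1+ cells, against at most 0.406 CPM elsewhere. Prrx1, a gene of limb mesenchyme, was at 164 to 223 CPM there and 402 to 1486 CPM in the other populations. All 8 myoblast genes listed (such as Pax3, Myf5 and Met) were called in S9-SCA-1+ cells, each as higher, and their sum was 1554 CPM in each of these 2 libraries and 2.01 to 16.1 CPM in the others. Library 3 of the S9-SCA-1+ cells also held red cell RNA: the 10 blood genes summed to 3222 CPM there, 116 CPM in library 2 and 2.66 to 73.6 CPM in the other populations.

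The 5 comparisons were made in a model of all 14 libraries (edgeR quasi-likelihood F test with Benjamini-Hochberg adjustment over 15125 genes), and the limits for a call were 0.1 for the adjusted p and 1.2 for the absolute log2 fold change. The study's methods give the same values, without saying whether their p was adjusted. Of the 42 members, 36 had enough counts to be tested. Between the S9- chondrogenic progenitors, 15 members were called in S9-Pαhi against S9-JAG1+ LMPs (7.00% of all tested genes were called). Of these, 13 were higher in S9-Pαhi LMPs (4.42% of all genes) and 2, Cdh22 and Cdh20, were lower (2.58% of all genes). In OCPs against S9-Pαhi LMPs only 4 members were called (4.84% of all genes): Pcdh1 and Pcdh11x higher (3.48% of all genes) and Pcdh19 and Pcdh20 lower (1.36% of all genes). Without OCP library 2, S9-Pαhi library 1 or S9-Pαhi library 3, this count was 2, and the lost members were Pcdh11x and Pcdh20 each time. In chondroblasts against OCPs 13 members were called (7.77% of all genes), 12 of them higher (6.60% of all genes) and 1, Cdh26, lower (1.16% of all genes). Leaving out S9-SCA-1+ library 2 or 3 leaves 1 library in that group, and the filter on counts then needs only 1 library. Cdh1 passed it through chondroblast library 3 alone (14 counts, against 2 and 3 in libraries 1 and 2) and joined them. Its call here was thus partly set by the filter, and its gain without library 3 below rests on the same filter. Chondroblasts against S9-JAG1+ LMPs gave 20 called members (19.4% of all genes), 19 higher (15.2% of all genes) and 1, Cdh22, lower (4.17% of all genes). S9-SCA-1+ cells against the equally weighted mean of the other 4 populations gave 17 (11.3% of all genes), 9 higher (4.46% of all genes) and 8 lower (6.80% of all genes). That count was 15 without S9-SCA-1+ library 2 (Cdh11 and Pcdh8 lost) and 17 without library 3 (Cdh9 and Pcdh8 lost, Cdh1 and Fat3 gained). Genes of other cells also differed in chondroblasts against S9-JAG1+ LMPs. There 6 of 7 tested ectoderm, 4 of 8 glial and neural crest, 5 of 8 myoblast and 1 of 6 blood genes were called higher. Called lower were 1 glial and neural crest gene, 1 myoblast gene and 2 of 9 tested endothelial genes. The part of these genes in the members' results was not tested. These comparisons share libraries and are not independent of each other.

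The median log2 fold change of the 36 tested members was 0.56 in S9-Pαhi against S9-JAG1+ LMPs, 0.04 in OCPs against S9-Pαhi LMPs, 0.61 in chondroblasts against OCPs and 1.57 in chondroblasts against S9-JAG1+ LMPs. The median of all tested genes lay between -0.02 and 0.05 in these comparisons. Scaling by library totals moved the median of all genes to 0.175 in chondroblasts against S9-JAG1+ LMPs and left the members called lower at 1 (Cdh22). In S9-SCA-1+ cells the members' median was -0.36 and that of all genes -0.01. By mean level, 15 of the 36 tested members were highest in chondroblasts (32.5% of all tested genes), 9 in S9-SCA-1+ cells (24.4%), 6 in S9-Pαhi LMPs (8.53%), 3 in S9-JAG1+ LMPs (21.5%) and 3 in OCPs (13.0%). Every chondroblast library lay above all other libraries for 10 members (13.3% of all tested genes), and every S9-SCA-1+ library for 7 (10.8%). Of the 10, Pcdh15, Cdh9 and Cdh12 passed the filter on counts only through chondroblasts, and of the 7, Fat2 and Cdh20 only through S9-SCA-1+ cells. Their places here and their calls as higher there were thus partly set by the filter. All libraries of a population also lay above all others for 1 member each in S9-JAG1+ LMPs (Cdh22, 6.72% of all tested genes), S9-Pαhi LMPs (Cdh6, 1.16%) and OCPs (Pcdh1, 1.24%).

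**Figure D1:**
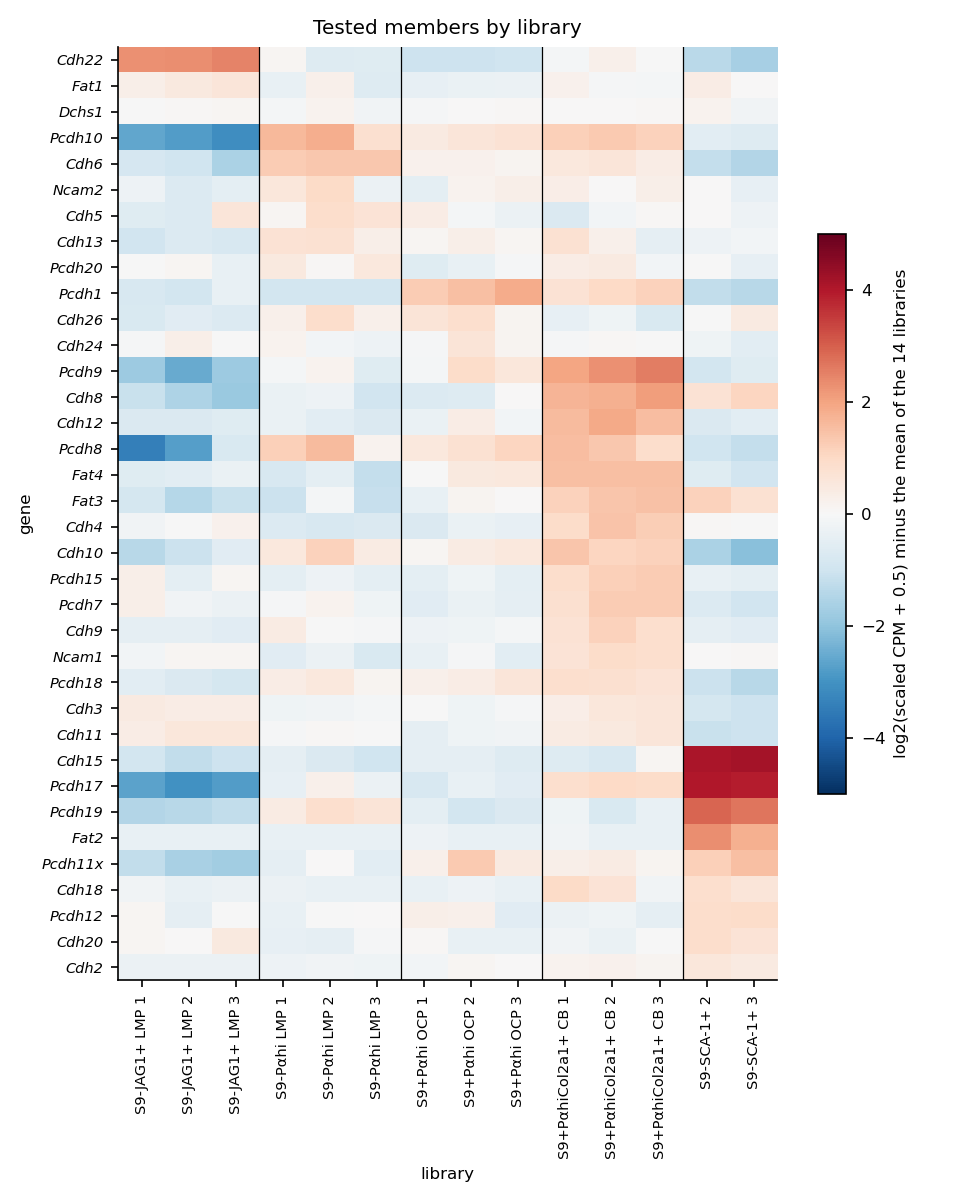
Each row is a tested member and each column a library, coloured by log2(scaled CPM + 0.5) minus the mean of the row over the 14 libraries and ordered by the population with the highest mean level. The rows from Pcdh9 to Cdh11 have their highest mean in chondroblasts, Cdh22 in the 3 S9-JAG1+ libraries, and Cdh15, Pcdh17, Pcdh19 and Fat2 in both S9-SCA-1+ libraries.

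The δ2-protocadherins hold a short motif in their tails that binds the WAVE actin regulator. The sequences before the start sites of 4 of them are shown because of their levels. Pcdh17 and Pcdh19 were highest in S9-SCA-1+ cells and Pcdh18 lowest there. Pcdh8 had its lowest mean in S9-JAG1+ LMPs, whose libraries overlapped with those of S9-SCA-1+ cells. The fifth, Pcdh10, is not shown because its window holds an exon of another gene. The sequences are from RefSeq on GRCm38.p6, which held a promoter window for 27 of the 42 members. Each is written 5′ to 3′ and ends where the annotated gene begins. Capitals mark CCAAT, a common promoter element, on either strand (ATTGG on the strand shown), a motif chosen after the sequences had been seen.
Pcdh17 (chr14:84443313-84443562, plus strand, 250 bases, 64.8% G or C): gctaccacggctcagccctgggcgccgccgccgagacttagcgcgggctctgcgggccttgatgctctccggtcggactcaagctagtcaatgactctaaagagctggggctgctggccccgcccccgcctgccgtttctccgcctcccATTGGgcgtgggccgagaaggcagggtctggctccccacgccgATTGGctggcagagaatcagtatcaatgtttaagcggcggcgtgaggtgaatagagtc
Pcdh19 (chrX:133689045-133689243, minus strand, 199 bases, 68.8% G or C): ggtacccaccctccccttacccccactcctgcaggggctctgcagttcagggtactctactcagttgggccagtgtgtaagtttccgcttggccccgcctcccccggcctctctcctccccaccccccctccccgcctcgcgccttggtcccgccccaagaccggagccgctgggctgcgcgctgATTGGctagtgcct
Pcdh8 (chr14:79771313-79771562, minus strand, 250 bases, 51.2% G or C): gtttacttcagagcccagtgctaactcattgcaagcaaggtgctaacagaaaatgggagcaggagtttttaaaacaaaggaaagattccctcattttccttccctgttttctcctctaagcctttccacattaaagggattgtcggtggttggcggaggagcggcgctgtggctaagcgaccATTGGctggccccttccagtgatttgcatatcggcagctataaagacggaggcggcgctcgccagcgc
Pcdh18 (chr3:49757384-49757566, minus strand, 183 bases, 72.1% G or C): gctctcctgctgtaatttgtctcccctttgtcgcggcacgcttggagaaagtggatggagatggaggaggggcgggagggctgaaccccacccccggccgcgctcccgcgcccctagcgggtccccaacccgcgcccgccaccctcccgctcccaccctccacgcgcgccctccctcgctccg
Over all genes, the motifs were counted in the 250 bases before the start that the promoter table uses. For 20 of the 27 members these windows overlap the gene as annotated over all its transcripts, and 15 lie wholly within it. CCAAT on either strand was found in 14 of the 27 member windows and in 34.5% of 27025 windows of all genes. It occurred 2 times in the Pcdh17 sequence, 1 time each in those of Pcdh19 and Pcdh8 and not in the Pcdh18 sequence shown (that of its window lies in the 67 bases left out, which are within the gene). The E-box core CANNTG, read the same on both strands, was found 1 time in the Pcdh19 sequence and not in the other 3 (14 of 27 member windows, 66% of all). ACAAAG on either strand, a core sequence bound by Sox proteins, was found 1 time in each of the Pcdh8 and Pcdh18 sequences (4 of 27 member windows, 16.5% of all). CAGCTG, an E-box variant, was found in 2 of 27 member windows, those of Cdh9 and Cdh12 (12.8% of all), and CAGGTG on either strand in 3 (17.1% of all). Such matches are descriptions of the letters in these windows.

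Cdh2 (N-cadherin, the type I cadherin of condensing mesenchyme) was expressed by every population. Its levels were 122, 120.2 and 121 in S9-JAG1+ LMPs, 125, 130.1 and 128 in S9-Pαhi LMPs, 134, 160.3 and 152 in OCPs, 170.4, 174 and 165 in chondroblasts and 219.7 and 206 in S9-SCA-1+ cells, all in CPM. The S9-SCA-1+ libraries were above all others and the chondroblast libraries above all remaining ones, while those of S9-JAG1+ LMPs were the lowest of the 5. Cdh2 was not called in any comparison: its difference was 0.60 ± 0.06 (SE) on the log2 scale in S9-SCA-1+ cells against the other 4 (adjusted p = 5.63e-06) and 0.49 ± 0.07 in chondroblasts against S9-JAG1+ LMPs (adjusted p = 5.61e-05), both under the limit of 1.2.

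Cdh11 (cadherin-11, a type II cadherin of mesenchyme and later bone) was the most abundant member per length. Levels were 642, 734 and 741 in S9-JAG1+ LMPs, 473, 521 and 496 in S9-Pαhi LMPs, 362, 430.3 and 437 in OCPs, 658, 706 and 755 in chondroblasts and 229.8 and 246 in S9-SCA-1+ cells. S9-JAG1+ LMPs and chondroblasts overlapped, OCPs were lower than both, and the S9-SCA-1+ libraries lay below all others. In S9-SCA-1+ cells Cdh11 fell by 1.25 ± 0.09 (SE) on the log2 scale (adjusted p = 1.55e-07). Without S9-SCA-1+ library 2 the value was -1.199, just short of the limit. In chondroblasts against OCPs it was 0.79 ± 0.09 higher (adjusted p = 3.77e-05, under the fold limit), and in chondroblasts against S9-JAG1+ LMPs the mean levels were 706 and 706 CPM.

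Per kilobase of exon, the 23 cadherins summed to 224 ± 12.2 CPM (SD, n = 3) in S9-JAG1+ LMPs, 175 ± 4.05 in S9-Pαhi LMPs, 166 ± 15.9 in OCPs, 240.4 ± 13.1 in chondroblasts and 136 ± 3.14 (n = 2) in S9-SCA-1+ cells. Cdh11 made up 61.5% of this sum in S9-JAG1+ LMPs and 57.4% in chondroblasts, but 34.1% in S9-SCA-1+ cells, where Cdh2 made up 32.2%. The ratio of Cdh11 to Cdh2 per kilobase, which does not depend on library scaling, was 4.96 to 5.81 in S9-JAG1+ LMPs, 3.59 to 3.79 in S9-Pαhi LMPs, 2.54 to 2.73 in OCPs, 3.66 to 4.33 in chondroblasts and 0.990 to 1.13 in S9-SCA-1+ cells. Among the populations, only the ranges of S9-Pαhi LMPs and chondroblasts overlapped.

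**Figure D2:**
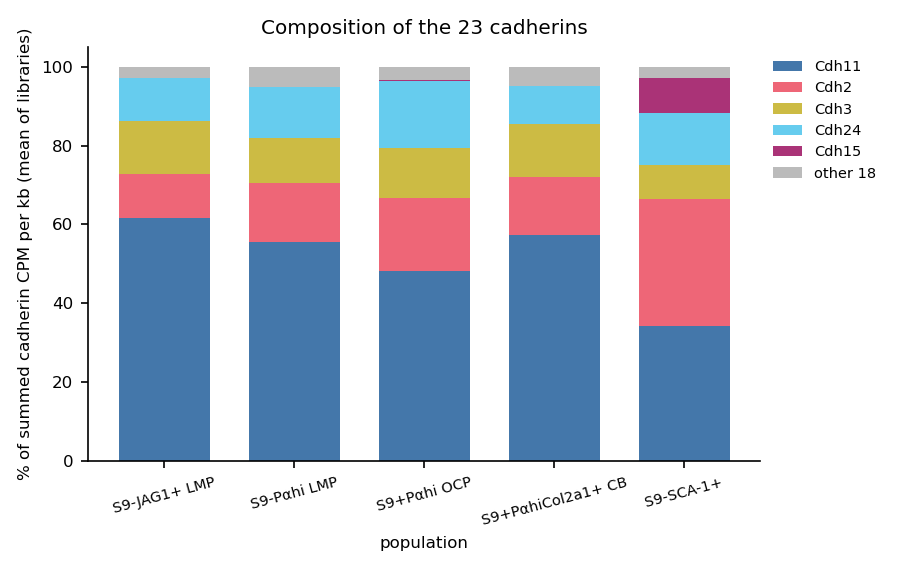
Each bar is a population and shows what percent of the summed CPM per kilobase of the 23 cadherins came from Cdh11, Cdh2, Cdh3, Cdh24, Cdh15 and the other 18, as the mean over its libraries. Cdh11 fills 61.5% of the bar of S9-JAG1+ LMPs and 34.1% of that of S9-SCA-1+ cells, where Cdh2 and Cdh15 take larger parts.

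The other type I cadherins differed widely in level. Cdh3 (P-cadherin) stood at 125, 119.5 and 119.6 in S9-JAG1+ LMPs, 78.2, 80.5 and 84.5 in S9-Pαhi LMPs, 90.4, 77.7 and 87.8 in OCPs, 115, 136 and 139 in chondroblasts and 49.8 and 44.6 in S9-SCA-1+ cells. It was lowest in both S9-SCA-1+ libraries and highest, with overlap, in S9-JAG1+ LMPs and chondroblasts, and was called in no comparison, its log2 difference in S9-SCA-1+ cells being -1.12 ± 0.09 (SE, adjusted p = 3.34e-07). The neighbouring gene Cdh1 (E-cadherin, of epithelia), which lies 0.0464 Mb away on chromosome 8, reached at most 0.550 CPM in any library and was not tested. The 12 ectoderm genes listed summed to 7.58 to 16.6 CPM in the E10.5 libraries and 22.7 to 27.9 CPM in chondroblasts. Among them Krt5 and Krt14 did not exceed 0.982 CPM, whereas in chondroblasts Krt18 was at 9.11 to 11.1 CPM and Epcam at 5.73 to 5.99 CPM. In S9-JAG1+ LMPs, where Cdh3 was at 119.5 to 125 CPM, the ectoderm sum was 7.58 to 13.0 CPM, and Krt8 reached 6.38 CPM in library 1. The part of ectoderm cells in the level of Cdh3 was not tested.

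Cdh4 (R-cadherin) was a gene of the chondroblast libraries, which lay above all others. It was measured at 8.48, 9.55 and 11.1 in S9-JAG1+ LMPs, 5.86, 5.34 and 5.68 in S9-Pαhi LMPs, 5.72, 7.46 and 7.12 in OCPs, 18.7, 26.4 and 23.3 in chondroblasts and 10.1 and 9.51 in S9-SCA-1+ cells. In chondroblasts against OCPs it rose (log2 fold change 1.75 ± 0.15 (SE), adjusted p = 3.72e-06). Against S9-JAG1+ LMPs the value was 1.23, close to the limit, and the call was lost without OCP library 2 or 3, chondroblast library 2 or 3, or S9-JAG1+ library 1 or 2. Cdh15 (M-cadherin, the cadherin of muscle precursors) was at 33.1 and 34.9 CPM in the S9-SCA-1+ libraries and at 0.335 to 1.61 CPM in the 12 others, with no overlap (log2 fold change 5.52 ± 0.18 (SE), adjusted p = 2.03e-11). Without S9-SCA-1+ library 3, which holds the red cell RNA, its log2 fold change was 5.48. The myoblast genes move with Cdh15 in these 2 libraries, and their part in the result was not tested.

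Among the type II cadherins, Cdh22 (PB-cadherin) was the S9-JAG1+ gene. It stood at 10.7, 10.7 and 12.1 in S9-JAG1+ LMPs, 1.95, 0.940 and 0.996 in S9-Pαhi LMPs, 0.608, 0.618 and 0.651 in OCPs, 1.65, 2.19 and 1.73 in chondroblasts and 0.385 and 0.214 in S9-SCA-1+ cells. All 3 S9-JAG1+ libraries lay above all others, and the gene was called in 4 of the 5 comparisons, most strongly in S9-Pαhi against S9-JAG1+ LMPs (log2 fold change -3.10 ± 0.26 (SE), adjusted p = 1.18e-06). From OCPs to chondroblasts it rose again at a low level (1.56 on the log2 scale, adjusted p = 0.00151).

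Cdh6 (K-cadherin) was highest in S9-Pαhi LMPs. The values were 8.61, 7.67 and 4.96 in S9-JAG1+ LMPs, 39.0, 40.5 and 40.3 in S9-Pαhi LMPs, 18.5, 18.3 and 17.4 in OCPs, 22.5, 23.9 and 20.7 in chondroblasts and 6.54 and 5.41 in S9-SCA-1+ cells. The S9-Pαhi libraries did not overlap with any others, and the gene rose from S9-JAG1+ to S9-Pαhi LMPs (log2 fold change 2.498 ± 0.16 (SE), adjusted p = 1.01e-07). OCPs were -1.14 on the log2 scale relative to S9-Pαhi LMPs (adjusted p = 0.00015), which misses the fold limit. Cdh8 and Cdh10, whose proteins are known from neural circuits, were low in S9-JAG1+ LMPs and highest in chondroblasts. Cdh8 stood at 0.343, 0.126 and 0 in S9-JAG1+ LMPs, 0.935, 1.05 and 0.448 in S9-Pαhi LMPs, 0.649, 0.666 and 1.34 in OCPs, 5.45, 5.75 and 7.22 in chondroblasts and 2.55 and 3.38 in S9-SCA-1+ cells, and its largest difference was between chondroblasts and S9-JAG1+ LMPs (log2 fold change 5.29 ± 0.54 (SE), adjusted p = 1.76e-06). Cdh10 was at 0.856, 1.17 and 1.86 in S9-JAG1+ LMPs, 4.64, 7.26 and 4.13 in S9-Pαhi LMPs, 3.29, 4.18 and 4.63 in OCPs, 8.58, 6.81 and 7.26 in chondroblasts and 0.665 and 0.321 in S9-SCA-1+ cells. Its S9-SCA-1+ libraries were below all others, and it fell by 2.94 ± 0.37 (SE) on the log2 scale in these cells (adjusted p = 2.26e-05). Cdh8 was called in S9-SCA-1+ cells too, but as higher (1.69 on the log2 scale, adjusted p = 0.00198).

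Cdh24 ranged from 44.5 to 101 CPM over all 14 libraries, and was called nowhere. The remaining type II genes were scarce. Cdh12 (N-cadherin 2) stood at 1.95, 2.57 and 1.92 CPM in chondroblasts, whereas no other library exceeded 0.571 CPM. Cdh9, on the same chromosome 15, was at 0.706 to 1.16 CPM in chondroblasts and at most 0.488 CPM elsewhere. Both were called higher in chondroblasts, against OCPs and against S9-JAG1+ LMPs, but passed the filter on counts only through chondroblasts. Cdh18 was uneven among the chondroblast libraries, with 0.773, 0.547 and 0.0785 CPM, and was 0.665 and 0.499 CPM in S9-SCA-1+ cells. Cdh20 did not exceed 1.01 CPM, was called higher in S9-SCA-1+ cells and was called lower in S9-Pαhi than in S9-JAG1+ LMPs. Cdh5 (VE-cadherin, of endothelium) ranged from 0.202 to 1.62 CPM and was called nowhere, beside a sum of 9.94 to 26.4 CPM for 10 endothelial genes.

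Cdh7 and Cdh19 were too low to be tested. Cdh19, known from Schwann cell precursors, had 0 counts in all S9-JAG1+ and S9-SCA-1+ libraries and was at 0.0811, 0.285 and 0.253 CPM in OCPs and 0.168, 0.205 and 0.118 CPM in chondroblasts. Glial genes moved with it: Sox10 was at 1.87 to 3.99 CPM in these 6 libraries and at most 0.178 CPM in the others, and 4 of the 8 glial and neural crest genes tested were called higher in OCPs than in S9-Pαhi LMPs. Their part in the level of Cdh19 was not tested. Of the atypical cadherins, Cdh13 (T-cadherin, held in the membrane by a lipid anchor) was highest in S9-Pαhi LMPs at 0.996 to 1.58 CPM, Cdh26 was at 0.506 to 1.203 CPM in S9-Pαhi LMPs and OCPs and at 0.0393 to 0.308 CPM in chondroblasts, and Cdh16, Cdh17 and Cdh23 were not tested, with at most 0.787 CPM in any library.

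Of the 4 δ1-protocadherins, Pcdh7 and Pcdh9 were highest in chondroblasts, Pcdh1 in OCPs and Pcdh11x in S9-SCA-1+ cells. Pcdh1 separated S9+ from S9- cells. It stood at 0.728, 0.629 and 1.15 in S9-JAG1+ LMPs, 0.651, 0.639 and 0.648 in S9-Pαhi LMPs, 4.67, 5.56 and 7.23 in OCPs, 3.03, 3.73 and 4.24 in chondroblasts and 0.420 and 0.321 in S9-SCA-1+ cells. The 3 OCP libraries lay above all others and the chondroblasts next, without overlap with the S9- libraries, and Pcdh1 rose in OCPs over S9-Pαhi LMPs (log2 fold change 3.17 ± 0.27 (SE), adjusted p = 5.49e-06). Its log2 difference from OCPs to chondroblasts was -0.67 (adjusted p = 0.0419, under the fold limit). Pcdh9 was measured at 0.514, 0.126 and 0.515 in S9-JAG1+ LMPs, 2.89, 3.61 and 1.89 in S9-Pαhi LMPs, 2.84, 6.32 and 4.88 in OCPs, 13.6, 17.2 and 20.6 in chondroblasts and 1.40 and 1.85 in S9-SCA-1+ cells. It rose from the lowest level in S9-JAG1+ LMPs to the highest in chondroblasts (log2 fold change 5.45 ± 0.41 (SE), adjusted p = 1.03e-07), where all 3 libraries exceeded all others, and was called in S9-Pαhi against S9-JAG1+ LMPs as well (2.85 on the log2 scale, adjusted p = 0.000295).

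Pcdh7 did not follow that order: its libraries were similar in both LMP populations, lower in OCPs, lowest in S9-SCA-1+ cells and highest in chondroblasts. The libraries gave 43.5, 30.6 and 28.9 in S9-JAG1+ LMPs, 34.0, 39.3 and 30.2 in S9-Pαhi LMPs, 23.5, 27.4 and 25.4 in OCPs, 61.6, 84.8 and 84.7 in chondroblasts and 21.4 and 17.7 in S9-SCA-1+ cells, and the rise from OCPs to chondroblasts was the only call (log2 fold change 1.60 ± 0.17 (SE), adjusted p = 1.63e-05). Of its annotated exon bases, 21.1% are shared with a transcript on the opposite strand, 4932441J04Rik, which reached at most 0.511 CPM; whether the counts used strand is not given in the sources used here. Pcdh11x was low, with 0.119 to 0.385 CPM in S9-JAG1+ LMPs and 4.27 to 5.31 CPM in S9-SCA-1+ cells, which overlapped with OCP library 2 (4.61 CPM).

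Pcdh18 was the second most abundant member per length in chondroblasts and took 83.7% of the summed protocadherin CPM per kilobase in S9-JAG1+ LMPs, 76.1% in chondroblasts and 28.6% in S9-SCA-1+ cells. Its levels were 175, 156 and 140.0 in S9-JAG1+ LMPs, 334, 364 and 284 in S9-Pαhi LMPs, 303, 332 and 384 in OCPs, 456, 449 and 416 in chondroblasts and 120.3 and 97.4 in S9-SCA-1+ cells. Chondroblast libraries exceeded all others, S9-SCA-1+ libraries were below all others, and Pcdh18 was higher in chondroblasts than in S9-JAG1+ LMPs (log2 fold change 1.49 ± 0.12 (SE), adjusted p = 2.24e-07). The sum over the 12 protocadherins per kilobase was 36.3 ± 3.77 CPM (SD, n = 3) in S9-JAG1+ LMPs, 84.7 ± 12.8 in S9-Pαhi LMPs, 80.5 ± 9.37 in OCPs, 112 ± 3.89 in chondroblasts and 73.3 ± 7.35 (n = 2) in S9-SCA-1+ cells.

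Pcdh10 (OL-protocadherin) set S9-JAG1+ LMPs apart from the rest. It was at 4.32, 3.73 and 2.89 in S9-JAG1+ LMPs, 91.0, 102 and 50.4 in S9-Pαhi LMPs, 39.9, 43.8 and 48.6 in OCPs, 67.4, 73.0 and 65.8 in chondroblasts and 20.2 and 18.2 in S9-SCA-1+ cells. All S9-JAG1+ libraries lay below all others, and the gene rose in S9-Pαhi LMPs (log2 fold change 4.48 ± 0.24 (SE), adjusted p = 2.63e-08). Within the S9-Pαhi LMPs, library 3 had the lowest level, as it had for Pcdh8. Pcdh8, the mouse counterpart of the paraxial protocadherin that acts in cell movements of the early mesoderm, stood at 0.128, 0.503 and 3.45 in S9-JAG1+ LMPs, 15.1, 19.9 and 7.22 in S9-Pαhi LMPs, 9.17, 11.0 and 13.8 in OCPs, 19.2, 16.6 and 11.8 in chondroblasts and 2.90 and 2.46 in S9-SCA-1+ cells. The S9-JAG1+ and S9-SCA-1+ libraries lay below those of the other 3 populations. The call in S9-SCA-1+ cells (-1.52 on the log2 scale, adjusted p = 0.0526) was lost without either S9-SCA-1+ library or without S9-JAG1+ library 3. The S9-JAG1+ libraries were uneven, with 3, 12 and 87 counts, and the difference of chondroblasts from them was 3.51 ± 0.61 (SE) on the log2 scale (adjusted p = 0.000223) and 5.59 without S9-JAG1+ library 3. The ratio of Pcdh18 to Pcdh10 per kilobase was 92.5 to 110.4 in S9-JAG1+ LMPs and 8.11 to 18.1 in the other populations.

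Pcdh17 and Pcdh19, whose upstream sequences are given above, were the δ2-protocadherins of the S9-SCA-1+ cells. Pcdh17 was at 1.71, 1.22 and 1.51 in S9-JAG1+ LMPs, 10.1, 16.1 and 10.9 in S9-Pαhi LMPs, 7.54, 10.46 and 9.08 in OCPs, 24.6, 27.2 and 26.4 in chondroblasts and 226 and 212 in S9-SCA-1+ cells. Both S9-SCA-1+ libraries lay far above the others (log2 fold change 4.76 ± 0.11 (SE), adjusted p = 7.12e-13), and among the others the chondroblasts were highest and the S9-JAG1+ LMPs lowest. Pcdh19, which is known to bind N-cadherin within the same membrane, was at 12.4, 13.1 and 14.5 in S9-JAG1+ LMPs, 46.6, 62.4 and 55.1 in S9-Pαhi LMPs, 24.3, 17.97 and 20.6 in OCPs, 29.97, 20.5 and 27.1 in chondroblasts and 266 and 226 in S9-SCA-1+ cells. It was again highest in S9-SCA-1+ cells (log2 fold change 3.29 ± 0.11 (SE), adjusted p = 2.84e-11), and next came the S9-Pαhi LMPs, which exceeded OCPs (-1.38 on the log2 scale for OCPs against S9-Pαhi LMPs, adjusted p = 4.81e-05). Without S9-SCA-1+ library 3 the log2 fold changes of Pcdh17 and Pcdh19 in S9-SCA-1+ cells were 4.80 and 3.40. The myoblast genes move with both, as with Cdh15, and their part was not tested. The ratio of Pcdh19 to Pcdh17 per kilobase was 6.70 to 9.97 in S9-JAG1+ LMPs, 3.58 to 4.67 in S9-Pαhi LMPs, 1.59 to 2.98 in OCPs, 0.696 to 1.12 in chondroblasts and 0.985 to 1.08 in S9-SCA-1+ cells.

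Of the other protocadherins, Pcdh15, which forms the tip link of hair cells with Cdh23, was at 0.773 to 1.18 CPM in chondroblasts and at most 0.343 CPM elsewhere. Pcdh12, known from endothelium, was at 0.875 and 0.890 CPM in S9-SCA-1+ cells against 0.406 CPM or less elsewhere. The endothelial gene Kdr was higher in the same 2 libraries, at 6.09 and 10.9 CPM against at most 1.99 CPM, although of the 9 endothelial genes tested 1 was called higher and 2 lower in these cells, and their part was not tested. Pcdh20 did not exceed 0.847 CPM in any library.

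**Figure D3:**
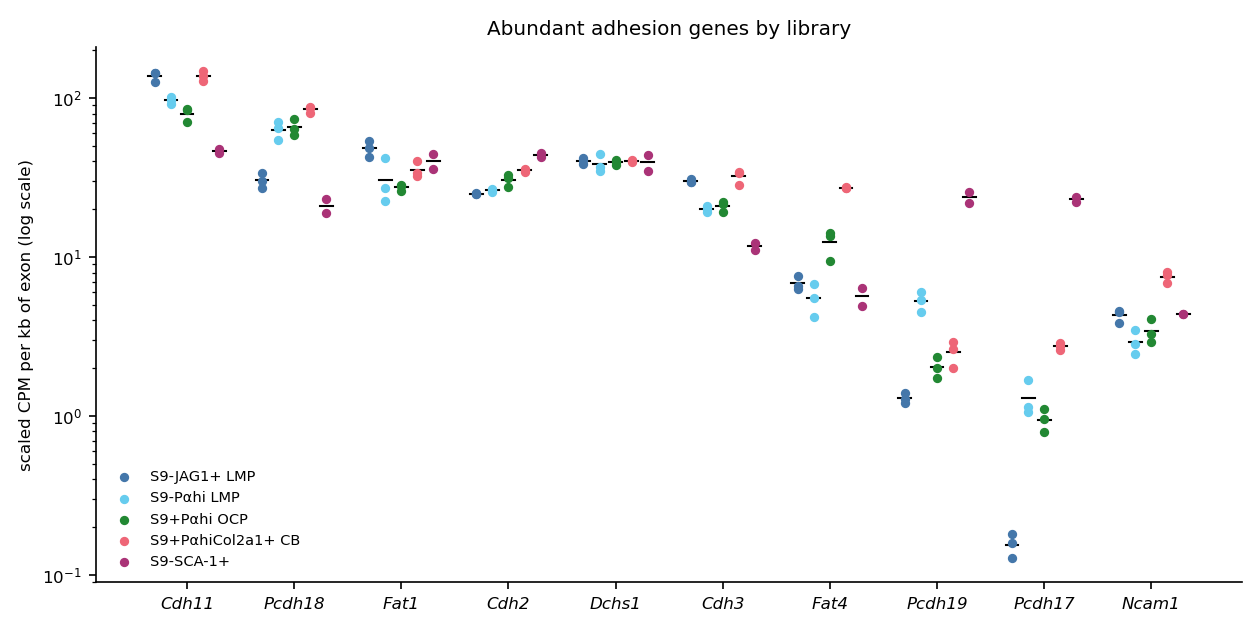
Points are libraries and bars population means of scaled CPM per kilobase of exon (log axis) for the 9 members with a mean of at least 100 CPM in a population and for Ncam1. Dchs1 varies little between populations, Fat4 and Ncam1 are highest in chondroblasts, and Pcdh17 spans the widest range, from S9-JAG1+ LMPs to S9-SCA-1+ cells.

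Within the Fat and Dachsous group both partners of the signalling pair were abundant. Dchs1 was level, at 412, 435 and 445 in S9-JAG1+ LMPs, 392, 474 and 370.0 in S9-Pαhi LMPs, 402, 424 and 434 in OCPs, 432, 425 and 436 in chondroblasts and 471 and 369 in S9-SCA-1+ cells, with overlap of all 5 populations and no call. Fat4, its receptor, stood at 102, 107 and 123 in S9-JAG1+ LMPs, 88.6, 109 and 68.0 in S9-Pαhi LMPs, 153, 217 and 227 in OCPs, 438, 447 and 439 in chondroblasts and 103 and 79.7 in S9-SCA-1+ cells. The chondroblast libraries exceeded all others and the OCPs the remaining ones, and Fat4 was called in chondroblasts against S9-JAG1+ LMPs (log2 fold change 2.00 ± 0.17 (SE), adjusted p = 3.94e-07). Its steps from S9-Pαhi LMPs to OCPs (1.17 on the log2 scale, adjusted p = 0.000453) and from OCPs to chondroblasts (1.15, adjusted p = 0.000262) were each just under the fold limit. The ratio of Fat4 to Dchs1 per kilobase was 0.162 to 0.183 in S9-JAG1+ LMPs, 0.122 to 0.152 in S9-Pαhi LMPs, 0.251 to 0.346 in OCPs, 0.666 to 0.696 in chondroblasts and 0.143 to 0.144 in S9-SCA-1+ cells.

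**Figure D4:**
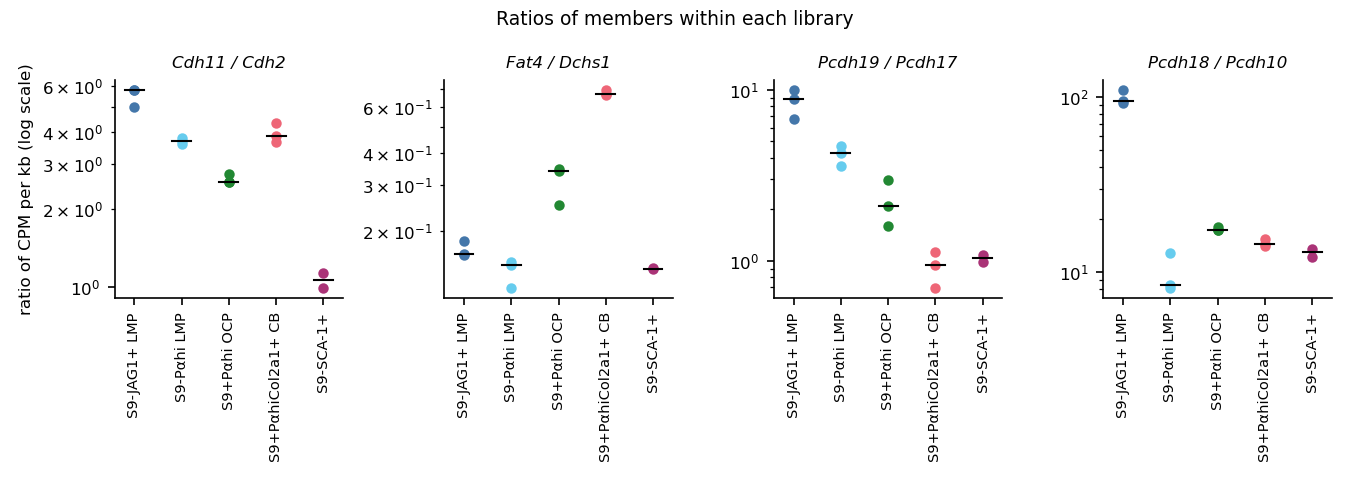
Each point is a library and each bar a median, showing on a log axis the ratio of CPM per kilobase of Cdh11 to Cdh2, Fat4 to Dchs1, Pcdh19 to Pcdh17 and Pcdh18 to Pcdh10 in the 5 populations. Fat4 to Dchs1 reaches 0.666 to 0.696 in chondroblasts and Cdh11 to Cdh2 falls to 0.990 to 1.13 in S9-SCA-1+ cells.

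Fat3, a relative with roles in the nervous system, was at 16.7, 11.3 and 14.2 in S9-JAG1+ LMPs, 14.6, 29.0 and 13.8 in S9-Pαhi LMPs, 24.1, 33.9 and 31.2 in OCPs, 69.4, 80.9 and 86.0 in chondroblasts and 69.5 and 53.3 in S9-SCA-1+ cells. Chondroblasts and S9-SCA-1+ cells were higher than the other 3 populations and overlapped, and Fat3 rose in chondroblasts over S9-JAG1+ LMPs (log2 fold change 2.48 ± 0.25 (SE), adjusted p = 1.71e-06) and over OCPs (1.41 on the log2 scale, adjusted p = 0.000873). Fat1 was abundant throughout, at 622, 711 and 789.8 in S9-JAG1+ LMPs, 401, 617 and 329 in S9-Pαhi LMPs, 381, 407 and 416 in OCPs, 589, 497 and 476 in chondroblasts and 655 and 522 in S9-SCA-1+ cells, and was called nowhere. Fat2 had 2.76 and 1.71 CPM in S9-SCA-1+ cells, where it was called higher, against 0.0673 CPM or less elsewhere. It passed the filter on counts only through these cells, so that this call was partly set by the filter. Fat1, Fat3, Fat4 and Dchs1 are among the longest members (10651 to 18468 exon bases), and in the S9-Pαhi LMPs library 2 had the highest and library 3 the lowest level of all 4.

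Ncam1 was highest in chondroblasts. Its levels were 37.7, 44.5 and 44.3 in S9-JAG1+ LMPs, 27.7, 34.2 and 24.0 in S9-Pαhi LMPs, 32.2, 40.04 and 28.5 in OCPs, 67.0, 78.5 and 75.1 in chondroblasts and 42.6 and 42.8 in S9-SCA-1+ cells. The chondroblast libraries exceeded all others, and the S9-Pαhi libraries lay below those of S9-JAG1+ LMPs. From OCPs to chondroblasts the difference was 1.13 ± 0.14 (SE) on the log2 scale (adjusted p = 6.27e-05), short of the fold limit of 1.2, which it passed when library totals were used for scaling (1.201) or OCP library 2 was left out (1.24). Per kilobase of exon in the table Ncam1 reached 7.52 CPM in chondroblasts, and 12.2 CPM with the length of its longest RefSeq transcript. Of its exon bases, 4.81% are shared with an opposite-strand gene, Gm11149, which reached at most 3.97 CPM. Ncam2 did not exceed 1.17 CPM in any library.

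**Figure D5:**
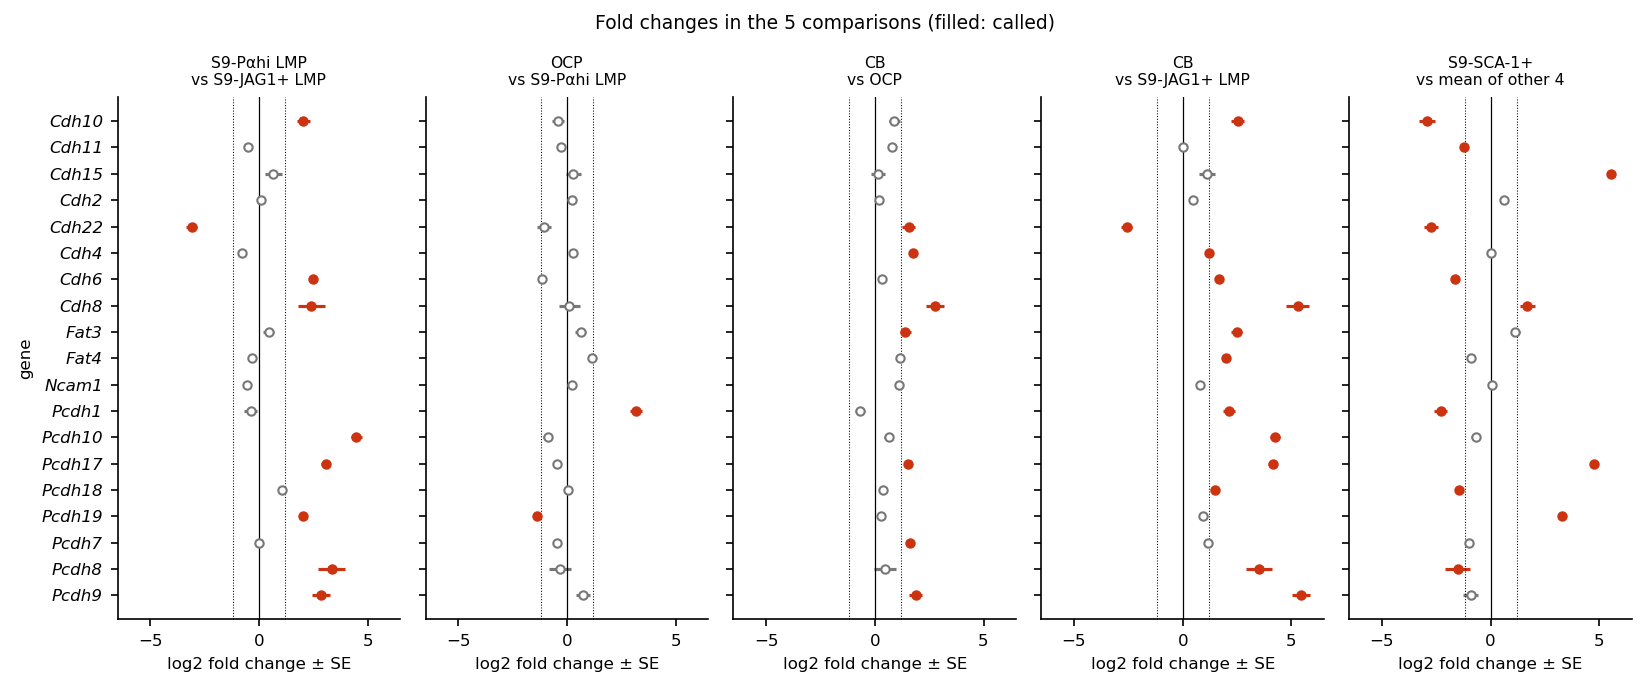
Log2 fold changes with their standard errors in the 5 comparisons, for the 17 members called at a level of at least 5 CPM and for Cdh2 and Ncam1, filled where called, with dotted lines at the fold limit. The panel of OCPs against S9-Pαhi LMPs has 2 filled points, Pcdh1 and Pcdh19, and that of chondroblasts against S9-JAG1+ LMPs has 13.

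Enzymes and signal partners of NCAM were listed with it. Of 6 such genes tested, 3 were called in chondroblasts against S9-JAG1+ LMPs, all higher (15.2% of all genes). The median log2 fold change of the 6 was 0.97, beside 0.05 for all genes. Gap43 went the other way without a call, from 36.9 ± 5.8 CPM (SD, n = 3) in S9-JAG1+ LMPs to 17.4 ± 2.46 CPM in chondroblasts. The polysialyltransferase St8sia2 stood at 29.9 ± 2.44 CPM (SD, n = 3) in S9-JAG1+ LMPs, 41.6 ± 6.24 in OCPs and 74.9 ± 7.32 in chondroblasts (log2 fold change 1.32 ± 0.12 (SE), adjusted p = 6.77e-07). The related St8sia4 was at most 0.790 CPM in both LMP populations, 4.82 ± 0.808 CPM in chondroblasts and 8.65 ± 0.0604 CPM (n = 2) in S9-SCA-1+ cells. Gfra1, a GDNF co-receptor that can signal with NCAM, was at 0.721 ± 0.159 CPM in S9-JAG1+ LMPs, 22.7 ± 4.78 CPM in chondroblasts and 94.7 ± 5.62 CPM in S9-SCA-1+ cells (log2 fold change 4.53 ± 0.13 (SE), adjusted p = 5.77e-12).

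Of 14 catenins and other inner partners of cadherins tested, 2 were called in chondroblasts against OCPs (1 higher, 1 lower, beside 7.77% of all genes), 4 in chondroblasts against S9-JAG1+ LMPs (3 higher, 1 lower, beside 19.4%) and 2 in S9-SCA-1+ cells (1 higher, 1 lower, beside 11.3%), all of them genes under 5 CPM. In the other 2 comparisons the log2 fold changes of the list lay between -0.34 and 0.65. The list summed to 2591 to 2980.0 CPM over all libraries. Pkp1, called higher in both comparisons of chondroblasts, was at 0.404 to 1.30 CPM there and at most 0.0356 CPM elsewhere. It passed the filter on counts only through chondroblasts, so that these calls were partly set by the filter. Of 12 other immunoglobulin-type adhesion genes, 7 were called in chondroblasts against S9-JAG1+ LMPs, all higher (15.2% of all genes), with a median of 1.60. Among them Alcam went from 12.5 ± 9.00 CPM (SD, n = 3) to 76.0 ± 5.22 CPM, Cadm2 from 0.303 ± 0.0527 to 11.4 ± 2.02, Cadm4 from 15.3 ± 0.851 to 48.0 ± 0.686 and Mcam from 1.15 ± 0.210 to 14.5 ± 1.83. Mcam was raised already in OCPs over S9-Pαhi LMPs (log2 fold change 3.14 ± 0.17 (SE), adjusted p = 6.58e-08). Of 3 nectins tested, Nectin1 was called, as higher in S9-SCA-1+ cells (4.46% of all genes) at 62.9 ± 6.43 CPM (n = 2, log2 fold change 1.71 ± 0.09 (SE), adjusted p = 4.62e-09).

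Of 19 growth control genes listed with the Fat and Dachsous group, 4 were called in chondroblasts against S9-JAG1+ LMPs, all higher. This is near the share of all genes called higher there (15.2%), and the median was 0.20. Whether Fat4 and Dchs1 act on these genes was not tested. The YAP targets Ccn1 and Ccn2 were at 75.2 ± 19.2 and 6.89 ± 2.05 CPM in S9-JAG1+ LMPs and 293 ± 51.2 and 19.1 ± 2.79 CPM in chondroblasts, and their highest single values were in OCP library 2 (538 and 42.2 CPM). Tead4 and Vgll3 were highest in S9-SCA-1+ cells, at 13.8 ± 1.05 and 9.37 ± 0.494 CPM (n = 2). Of 8 transcription factors known to repress cadherin genes, 2 were called higher in chondroblasts against S9-JAG1+ LMPs (15.2% of all genes), Zeb2 (log2 fold change 2.83 ± 0.19 (SE), adjusted p = 4.78e-08) and Snai2 (log2 fold change 1.23 ± 0.11 (SE), adjusted p = 6.77e-07), and 2 lower in S9-SCA-1+ cells (6.80% of all genes), Snai2 and Twist1, with -1.94 and -1.65 on the log2 scale. The median of the 8 was -0.27 in the first comparison. The 6 proteases and presenilins listed that cut cadherins stayed under the fold limit in all 5 comparisons, with log2 fold changes from -0.16 to 0.69.

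By position, 9 of the 42 members lie on chromosome 8, 5 each on chromosomes 14 and 15 and 3 each on chromosomes 1, 2, 3 and 18. Neighbours could differ widely in level: on chromosome 14, Pcdh17 and Pcdh20 lie 3.93 Mb apart and had highest population means of 219 and 0.716 CPM, and Cdh3 and Cdh1 differed as given above. Of the 5 members on chromosome 15, Cdh9, Cdh10 and Cdh12 were highest in chondroblasts, while Cdh6, 3.55 Mb before Cdh9, was highest in S9-Pαhi LMPs and Cdh18, 0.951 Mb after Cdh12, in S9-SCA-1+ cells. The means of 7 tested members (Cdh2, Cdh8, Cdh12, Cdh15, Pcdh9, Pcdh18 and Fat3) were in increasing order from S9-JAG1+ to S9-Pαhi LMPs, OCPs and chondroblasts, as were those of 17.7% of all tested genes. In at least 1 of the 5 comparisons 29 of the 36 tested members were called (26.2% of all tested genes), 12 of them at highest means under 5 CPM.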

How the data were processed

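RNA-seq had been made from poly(A) RNA of sorted cells with single reads of 50 cycles. Per the labels and the study's methods, the authors aligned reads to mm10 with STAR, kept 1 hit of each multiply mapping read and counted reads starting in RefSeq exons with QuasR. The deposited values are counts per gene, not normalized, and whether they used strand is not given in the sources used here. Identifiers were matched to symbols for 24374 of 24454 genes, and the 80 others held 0.358% of counts. The depth of 20316583 to 29162751 counts a library sets the floor of 3 counts, which covers counting error only.

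Genes were filtered by population and scaled by TMM (filterByExpr, edgeR 4.0.16, R 4.3.3), fitted with 5 population means and tested with the quasi-likelihood F test. The common biological coefficient of variation was 13.4%. SEs were derived from log2 fold change and F. On counts simulated for 15125 genes, 195 of 200 changed genes were recovered in chondroblasts against OCPs, with 3 false calls. All planted changes were larger than the fold limit, every gene had the same spread of 13.4%, and populations differed in nothing else. The simulation therefore says nothing of genes near the limit or with a larger spread. Levels per length used the exon bases given in the table. Alternatives were DESeq2 1.42.0, other scalings, filters and limits, a replicate block, the populations compared alone, and leaving out each library. Tables were joined with Python 3.11.15 and pandas 2.3.3.

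Members called in a comparison with a mean of at least 5 CPM in a population, and Cdh2, Cdh11 and Ncam1, are given by library with their largest change, other members by range. Listed genes are named where called at that level, at most 4 a list. Cdh1, Cdh3, Cdh9, Cdh12, Cdh18, Cdh19, Fat1, Fat2, Dchs1, Pcdh12, Kdr, Krt5, Krt8, Krt14 and Sox10 are named with values chosen after these were seen. The same holds for Gap43, Pkp1 and Tfap2b. The members and lists were chosen with earlier results of these data known. No library pair agreed within sampling noise, and replicate numbers are those of the labels.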

Additional observations from a re-analysis of the deposited data

How the results depend on the processing

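In OCPs against S9-Pαhi LMPs, the 4 called members became 12 (4 higher, 8 lower) with no fold limit, 2 with only the populations compared in the model, and 2 to 6 when each library was left out in turn. In chondroblasts against OCPs, 13 became 22 (20 higher, 2 lower) with no fold limit and 12 to 15 without single libraries. Leaving out single libraries gave 13 to 16 calls in S9-Pαhi against S9-JAG1+ LMPs, 18 to 22 in chondroblasts against S9-JAG1+ LMPs and 15 to 18 in S9-SCA-1+ cells. The other alternatives kept these counts within 1.5 times the reported ones. Of 393 alternative values of 19 fold changes, 390 kept their direction and side of the limits, 2 (Ncam1) passed the fold limit, 1 (Cdh11) missed it, and 0 changed direction. With the longest RefSeq transcript as length, 5 of 19 levels per length moved by more than 1 SD, among them Ncam1 from 7.52 to 12.2 and Pcdh10 from 6.89 to 9.87 CPM per kilobase. The replicate block gave 15, 4, 12, 20 and 17 called members in the 5 comparisons in the order given, with Pcdh20 lost in chondroblasts against OCPs. Deviations of libraries with the same number correlated between -0.181 and 0.308, so the numbers were not taken to pair the samples. Counts of 3 or fewer in a library limit what can be said of the 6 members not tested.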
